A study of Mus musculus with 30 samples.

Results

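The bins described here are 100 nt stretches of mouse genes that were listed as N6-methyladenosine (m6A) peaks in embryonic stem cells lacking METTL14 and not in wild-type cells. A bin was taken when the same chromosome, start, end and strand stood in all 3 peak lists of the Mettl14 knockout (KO) while every one of the 3 wild-type (WT) lists lacked it. This rule gave 615 bins in 519 genes, of 62091 distinct bins in the 15 lists of the series (0.99%). They were 26.1% of the 2352 bins that all 3 KO lists held, of which another 1081 (46%) stood in all 3 WT lists, while 9081 bins (14.6% of all) stood in all WT and no KO lists. The bins are called KO-listed bins below. Because presence in the KO and WT lists chose them, that difference is a description and was not tested.

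The study profiled m6A in 5 lines of C57BL/6 mouse embryonic stem cells, all grown with leukemia inhibitory factor on gelatin, with 3 replicates per line. WT was the unmodified line and KO lacked METTL14. KO+WT was the knockout with METTL14 put back, and KO+5RK and KO+13RK were the knockout with an arginine methylation-deficient METTL14 put back, the labels' 5RK and 13RK forms. The 3 lines with METTL14 put back are called rescue lines here, and their 9 peak lists were not used to choose the bins. The labels give neither the number of clones per line, nor how the knockout was made, nor how METTL14 was expressed, nor whether replicates came from separate cultures, and a p-value here therefore reflects just the spread among these libraries. Expression in the input RNA libraries was not analysed here, so a gain of a call and a gain of the RNA itself cannot be told apart.

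m6A is a methyl mark on internal adenosines of messenger RNA. METTL3 carries the catalytic activity and METTL14 is its RNA-binding partner, and the pair places m6A mainly in long internal exons, around stop codons and in 3′ untranslated regions, at sites that often hold the letters GGAC. Antibodies against m6A also bind m6Am, a doubly methylated adenosine next to the cap at the 5′ end of transcripts, which is written by PCIF1 and not by METTL3 and METTL14.

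The peak lists were unequal in length, with 22217 to 23164 rows in WT, 6328 to 8593 in KO, 14187 to 17185 for KO+WT, 11174 to 13013 for KO+5RK and 9588 to 10980 for the 13RK line. Read depth per bin is unknown, so a missing call is not an absence of m6A. Replicate lists of a line shared between 26.1% (lowest, KO) and 45.03% (highest, WT) of the bins found in either list of a pair. Of 8 stem cell markers, all had bins, Esrrb in 15 lists and Pou5f1 in 6. Pou5f1 had no bin in WT, while each of the others had bins in all 3 WT lists. Of 7 fibroblast markers, Col1a1, Thy1 and Fbn1 had 2 to 4 bins over all lists and the others none. Peak calls are not expression levels.

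Many of the KO-listed bins lay at the 5′ ends of genes, and the sequence around the start is shown for those of the 8 such bins with the highest mean within-list percentile of the enrichment value over the KO lists that have an entry in the RefSeq start-site table (GRCm38.p6). Each line gives 10 bases before the annotated start and the first 20 transcribed bases, 5′ to 3′. Capitals mark the first transcribed base and any GGAC.
Ier3: gcacaacgtcTaaattatgtgccactcgcg
Kbtbd4: ggcggggtggGggggggagacgatGGACgg
Sec22b: cggccacctcAgcgggaagcggagacgcca
Pmf1: cgccccatccGgctccgtgacgggcattcc
Sco1: gaggtggcccAaaggaggcgcggtctccta
Sephs2: gcgctccgacAggcagcgtggctcgagtcc
These windows lie at chr17:35821703-35821732 (+), chr2:90904992-90905021 (+), chr3:97901217-97901246 (+), chr3:88410378-88410407 (-), chr11:67052660-67052689 (+) and chr7:127274040-127274069 (-), in the order printed. Counted from the first transcribed base, the called bin of Ier3 ran from position -27 to 72, that of Sec22b from -35 to 64 and that of Sephs2 from -19 to 80. The bin of Sco1 ran from 2 to 101 and that of Pmf1 from 55 to 154. The bin of Kbtbd4 ran from -160 to -61, before the nearest annotated start of its table, so its marked GGAC lies outside the bin. The bins were picked by the start of the RefSeq gene span, which can differ from the start printed here. From the span start, the bin centres of Kbtbd4, Sco1 and Pmf1 lay 150.5, 120.5 and 151.5 nt away.

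The KO-listed bins lay near gene starts far more often than the bins that the knockout lost. Of the 561 bins that could be placed on a RefSeq gene span, 142 (25.3%) had their centre within 500 nt of the gene start, and 76 (13.5%) lay within 2000 nt of the gene end. Among bins listed in all WT and no KO lists, 1.05% of 8101 lay near the start and 39.96% near the end. Bins listed in all KO and all WT lists were closer to the KO-listed bins, with 19.14% of 888 near the start and 17.9% near the end. Over all distinct bins the shares were 7.82% and 30.9%, and over all bins of any KO list 16.4% and 17.9%. The KO-listed bins were thus placed much like the other calls of the knockout, somewhat more to the 5′ side. The class from 100 to 200 nt downstream of the start alone held 63 of them (11.2%). It held 8.67% of the bins listed in all KO and all WT lists and 0.222% of the bins lost in the knockout.

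**Figure D1:**
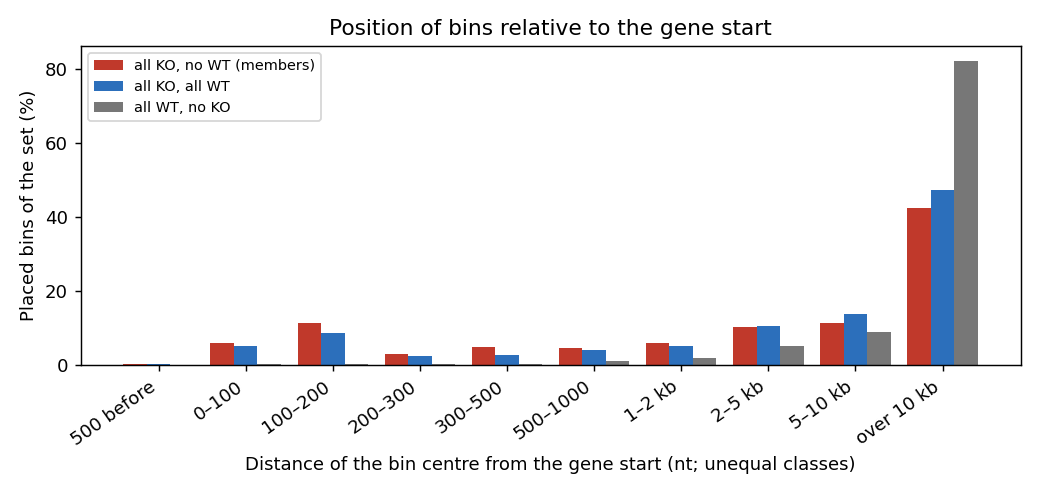
Share of placed bins (vertical axis, %) by distance of the bin centre from the RefSeq gene start (horizontal axis, nt, classes of unequal width), for bins in all KO and no WT lists (red), in all KO and all WT lists (blue) and in all WT and no KO lists (grey). Within 500 nt of the start lay 25.3%, 19.14% and 1.05% of the 3 sets.

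The letters at the start were set beside those of all windows of the table and of windows near other called bins. For 116 start windows within 500 nt of a KO-listed bin, the first transcribed base was A in 34.5%, against 34.4% of all 32851 windows in the table. GGAC stood in the first 50 transcribed bases of 22.4% on the sense strand and 24.1% on the other strand, against 18.9% and 17.4% of all windows. Of 134 windows within 500 nt of bins listed in all KO and all WT lists, 22.4% held GGAC on the sense strand and 16.4% on the other. Of 2671 windows within 500 nt of bins of any list, the shares were 20.7% and 19.9%. A came first in 30.6% and 29.7% of these sets. The sense share of GGAC was thus much the same near bins that WT also listed, while the share on the other strand was lower there. These differences were not tested. In 9 cases the KO-listed bin held the annotated first base itself. That base was A in 5 of them, among them Sec22b and Sephs2 printed above. All of these are matches in the RefSeq windows and not mapped sites. The letters searched lay mostly outside the called bins. Only 34 KO-listed bins overlapped the first 50 transcribed bases, and among those within 500 nt the median first position was 96.5.

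Most genes with a KO-listed bin also carried m6A calls elsewhere in WT cells. A WT bin existed somewhere in the gene for 550 bins (89.4%), with a median distance of 1700 nt between starts, and for 99 bins (16.1%) the next bin along was listed in WT. Bins in 2 KO lists and no WT list stood close to this, with 85.0% in genes with a WT bin, 13.7% beside one and a median distance of 2300 nt. In 364 cases the gene also had a bin listed in all WT and no KO lists, and the KO-listed bin lay upstream of the nearest such bin in 310 of them (85.2%). The same share was 74.4% for bins listed in all KO and all WT lists and 79.9% for bins in 2 KO lists and no WT list. One gene that shows this is Nanog, a core pluripotency factor. Its adjacent KO-listed bins lay 150.5 and 250.5 nt from the gene start, and its nearest WT bin lay 5700 and 5600 nt away from them.

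The name "seen only without METTL14" held for fewer than 1 in every 2 of these bins. Of the 615, 260 (42.3%) were called in no rescue list, and 355 (57.7%) were called in at least 1 list of a line that carried METTL14 again. In KO+WT, the line with the unmutated protein, 231 bins (37.6%) were called in at least 1 list, 58 in 2 lists and 23 in all 3. A further 124 were called in a mutant list and in no KO+WT list. Of the 1081 bins listed in all KO and all WT lists, 29 (2.68%) were called in no rescue list and 495 (45.8%) in all 9, against 5 KO-listed bins (0.813%) in all 9. Bins in 2 KO lists and no WT list stood nearer to the KO-listed bins. Of them, 827 (54.5%) were called in no rescue list and 378 (24.9%) in at least 1 KO+WT list. The same shares over all distinct bins were not counted, so these counts stand beside the named sets only.

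**Figure D2:**
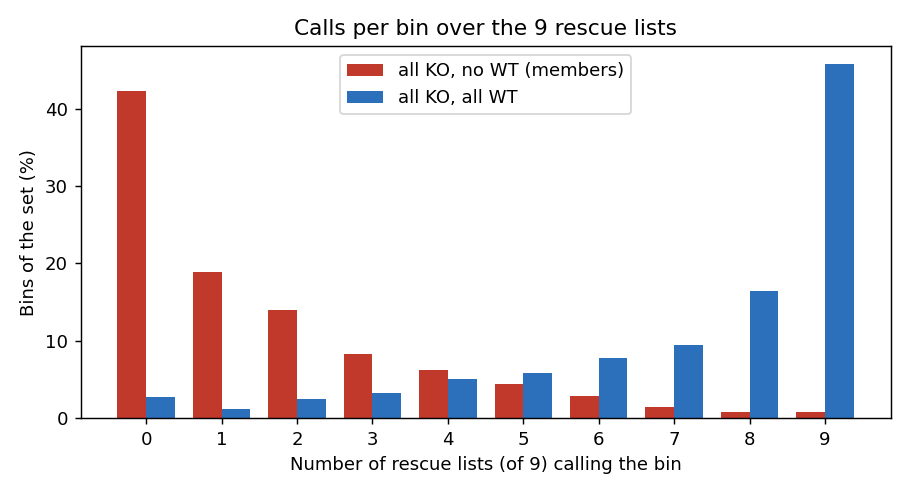
Share of bins (vertical axis, %) by the number of the 9 rescue lists that call them (horizontal axis), for the 615 bins in all KO and no WT lists (red) and the 1081 bins in all KO and all WT lists (blue). The red bars are highest at 0 lists (42.3%) and the blue bars at 9 lists (45.8%).

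In single lists, 93, 156 and 86 of the 615 bins were called in KO+WT replicates 1 to 3. The counts were 97, 87 and 89 for KO+5RK and 119, 131 and 126 for KO+13RK. KO+WT replicate 2, the longest rescue list, stood above the other KO+WT lists, and every KO+13RK list lay above every KO+5RK list. As shares of the 615, KO+WT stood at 18.2% ± 6.27 (SD, n = 3), KO+5RK at 14.8% ± 0.860 and KO+13RK at 20.4% ± 0.980. The difference between the 3 lines did not pass 0.05 (exact permutation test over the 9 lists, p = 0.239, with 0.00357 the smallest possible), and without KO+WT replicate 2, which brought that line to 14.6%, the exact p was 0.0286. Of the pairs of lines, KO+5RK against KO+13RK had an exact p of 0.1 (adjusted over 3 pairs 0.3), the smallest that 3 lists against 3 allow, and the others had 0.5 and 0.7.

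Set against the length of the lists, the bins were most frequent in KO+13RK. They made up 12.4 ± 1.11 of every 1000 listed bins there (SD, n = 3), 7.42 ± 0.560 in KO+5RK and 7.22 ± 1.62 in KO+WT, and 80.6 ± 14.4 in KO itself. The rescue lines differed (exact permutation test over 9 lists, p = 0.0321), and no KO+13RK list overlapped a list of the other lines. Each pair with KO+13RK had an exact p of 0.1 (adjusted 0.15), the smallest possible. The difference did not hold with the replicate number as a block (exact p = 0.111). With all lists shortened to the same length and the bins chosen anew, 28.6% of 1107 were called in KO+13RK, 21.0% in KO+5RK and 17.5% in KO+WT (exact p = 0.00714). Bins listed in all KO and all WT lists also made up more of the KO+13RK lists, with 80.6 ± 7.55 per 1000, than of KO+5RK, with 68.7 ± 1.56, and KO+WT, with 62.5 ± 5.03 (exact permutation p = 0.00357), so the order is not particular to the KO-listed bins.

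**Figure D3:**
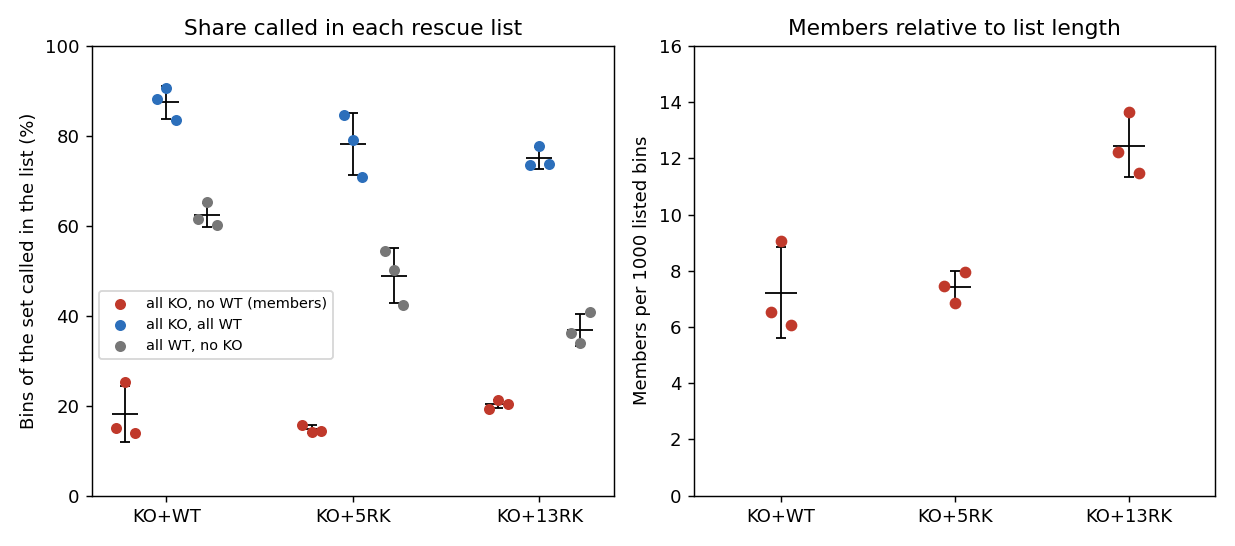
Left, share of each set called in each rescue list (vertical axis, %), with bins in all KO and no WT lists in red, in all KO and all WT lists in blue and in all WT and no KO lists in grey. Right, bins in all KO and no WT lists per 1000 listed bins. Points are lists, black bars are the mean and SD of 3 lists, and the red points on the right are highest in KO+13RK (12.4 on average).

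Among bins held by all KO lists, those missing from WT were called less often in the rescue lines than those present in WT. KO+WT called 87.4% ± 3.61 (SD, n = 3) of the bins listed in all KO and all WT lists, KO+5RK 78.2% ± 6.93 and KO+13RK 75.02% ± 2.41. The share of KO-listed bins was lower in all 9 lists, with differences of -73.0 to -53.3 percentage points and a mean of -62.4 (two-sided exact sign-flip permutation test over lists, p = 0.00391, the smallest possible). The choice itself favours this direction, since the compared bins had to be called in every WT list and the KO-listed bins in none. The test therefore cannot separate a trait of the KO-listed bins from how the sets were chosen, and the same limit holds for the ranks that follow. The 9 lists also come from only 3 lines. Where a rescue list did call them, they also ranked lower within it, the difference in median percentile of the enrichment value being -13.3 to -4.06 points, below 0 in 9 of 9 lists, with a mean of -8.97 (exact p = 0.00391). With only bins at or above the median enrichment value this difference was -0.386 (exact p = 0.895). The enrichment value is the authors' own score per bin, whose scale is not given, so it is read only within a list. Just outside the rule, the 1518 bins in 2 KO lists and no WT list were called at 10.8% ± 3.10 by KO+WT lists, 10.4% ± 1.10 by KO+5RK lists and 11.4% ± 0.439 by KO+13RK lists.

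Calls were also followed into KO and WT lists left out of the choice. When bins were chosen from 2 KO and 2 WT lists, in 9 ways, the left-out KO list called 44.98% to 63.4% of them and the left-out WT list 10.1% to 17.4%. The low end belonged to KO replicate 1, the shortest list, with 44.98% to 45.5%. For bins chosen the other way round, in 2 WT and no KO lists, the left-out WT list called 78.2% to 81.4% and the left-out KO list 1.49% to 3.33%. Bins chosen as in both lines were called in 76.3% to 90.1% of cases by the left-out KO list.

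In the KO lists themselves many of these bins were calls of low rank, and so were the bins that WT shared. The median percentile of KO-listed bins in KO replicates 1 to 3 was 30.4, 34.98 and 35.4, and that of bins in all KO and all WT lists was 33.4, 43.3 and 41.7. The mean within-list percentile of the enrichment value over the 3 KO lists had a median of 33.9 and ran from 0.0841 to 95.5. Bins with 2 KO calls, whose mean covers only those 2 lists, had a median of 45.8. The deposited q was taken as the median over the KO lists that call a bin. It had a median of 0.0026 for KO-listed bins and 0.0136 for those in 2 lists. Among the 49 KO-listed bins with a mean percentile of 75 or more, 19 (38.8%) were called in no rescue list, near the 42.3% over all.

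The strongest bins called in no rescue list lay in genes of varied function and mostly away from gene starts. Sema6a, a transmembrane semaphorin that guides migrating neurons, had enrichment values of 2.76, 2.45 and 2.88 in the KO lists and no bin in any WT list (chr18:47247899-47247998, GRCm38, 2694.5 nt from the gene end). Zdbf2, an imprinted gene expressed from the paternal allele, had 2.85, 2.41 and 2.52, and its nearest WT bin lay 400 nt away. Both ranked high in the KO lists, at mean percentiles of 94.7 and 92.8.
Tmed7, a cargo receptor of the early secretory pathway, had 2.95, 1.85 and 2.73, and a second KO-listed bin 400 nt upstream was called in 2 KO+WT and 2 KO+13RK lists. Tef, a PAR-type leucine zipper transcription factor linked to the circadian clock, had 2.44, 2.47 and 2.37, the KO lists differing little (SD 0.0513). The splicing-complex assembly gene Gemin7 had 2.51, 1.90 and 3.06. Lrrc73 had 2.35, 2.36 and 2.33, with no WT bin in the gene, and Fbxl16, an F-box protein gene, had 2.48, 1.74 and 3.00 at 326.5 nt from the gene end.
The immediate early gene Ier3 had 2.25, 2.37 and 2.56, in a bin centred 21.5 nt from the gene start.

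At the other end, 10 bins were called in 8 or 9 rescue lists, and so were missing from WT and present in nearly all libraries derived from the knockout. Fmr1nb, a gene next to Fmr1 on the X chromosome, was called in all 9, with values of 1.23, 1.56 and 1.18 in KO and 0.92 to 1.30 in the rescue lists, and it had no WT bin. Nucb1, a calcium-binding Golgi protein gene, was called in all 9 with 0.92, 1.02 and 1.13 in KO, and Psmd3, a proteasome subunit gene, with 0.73, 0.73 and 0.83. Their mean KO percentiles, 50.4, 25.1 and 4.52, were lower than those of the bins above.
The Ipo7 bin, in a nuclear import receptor gene, was also called in all 9, and so was a bin of 1600010M07Rik that covers nearly the same bases on the other strand. Kif20a, a mitotic kinesin gene, Taf5, a subunit of general transcription factor TFIID, and Ssr2, a subunit of the translocon-associated complex, were called in 8. The Kif20a bin overlaps a KO-listed bin of Cdc23 on the other strand, and the Sephs2 start printed above has such a partner too. Libraries were stranded per the labels, but no source used here says how the authors' counting treated strand, so such antisense pairs are uncertain.

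**Figure D4:**
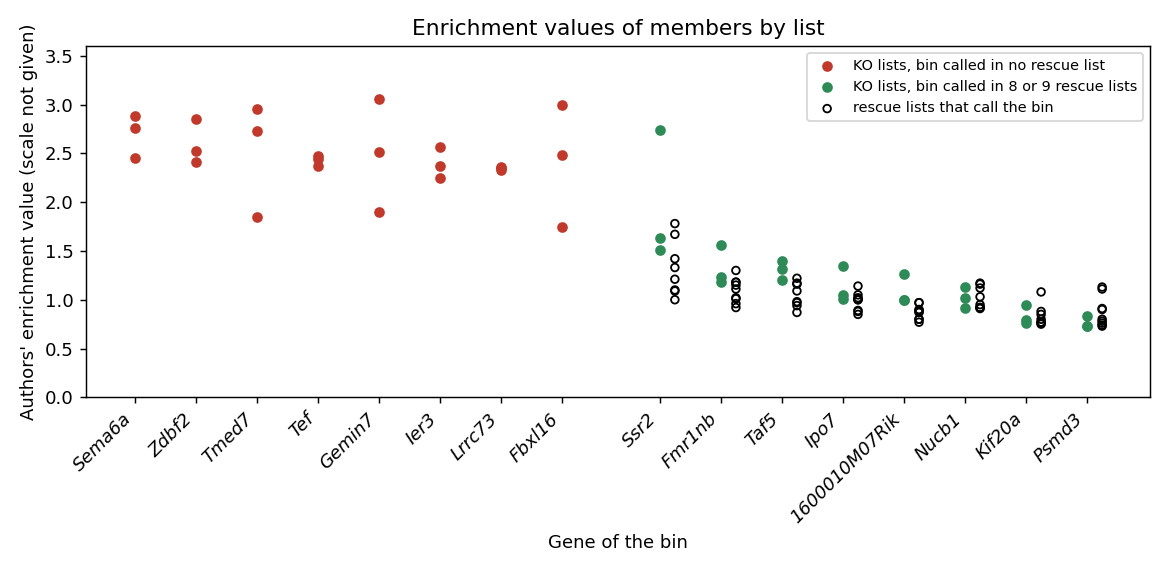
The authors' enrichment value (vertical axis, scale not given) of the 8 highest-ranked bins called in no rescue list (red) and of 8 called in 8 or 9 rescue lists (green), one filled point per KO list, with open circles for the rescue lists that call the bin. The mean KO values are 2.35 to 2.70 in the red group and 0.763 to 1.96 in the green group.

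Few bins separated the rescue lines from each other in every replicate. Only 4 were in all KO+13RK lists and no KO+WT list, in Cpsf2, Rpgrip1, Sdc4 and Gm14493, and 4 were the reverse, in Sept9, Brms1l, Sdhd and Huwe1. That is 0.65% of the KO-listed bins each way, against 0.137% and 1.68% of all distinct bins. Of the bins listed in all KO and all WT lists, the shares were 0.0925% and 3.05%. Sdc4, a cell-surface heparan sulfate proteoglycan gene, was called at 1.02, 1.12 and 1.23 in the KO+13RK lists and in no other rescue list. Huwe1, a ubiquitin ligase gene, was called at 0.81, 0.78 and 0.64 in the KO+WT lists only. One bin, in Sgpl1, was in all KO+5RK lists and no KO+WT list (0.163% of KO-listed bins, 0.2% of all bins). The reverse held for 3, in Ostf1, Trim6 and Huwe1 (0.488% of KO-listed bins, 0.759% of all bins). Of the bins listed in all KO and all WT lists, these shares were 0.0925% and 1.11%. These genes were named after their values were seen.

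Of the 519 genes, 447 had 1 KO-listed bin, 54 had 2, 12 had 3 and 6 had 4, and 80 bins lay directly beside another. The genes with 4 included the facilitative glucose transporter genes Slc2a1 and Slc2a3. Slc2a1 had adjacent bins 116.5 and 216.5 nt from its start and another adjacent pair 24516.5 and 24616.5 nt from it, and only the first was called in a rescue list, in 1 KO+WT and 1 KO+5RK list. The strongest Slc2a3 bin, 1003.5 nt from its start, had 1.83, 2.23 and 3.36 and no rescue call, while its weakest, at 0.54, 0.59 and 0.57, was called in 8 rescue lists. Of the 72 genes with more than 1 KO-listed bin, 21 had every bin in no rescue list, 16 had every bin in at least 1 and 35 had bins of both kinds.
The anti-apoptotic gene Mcl1 had 3 adjacent bins and 1 nearby, 1894.5 to 2394.5 nt from its start, which were called in KO+13RK lists or in no rescue list. Trim25, an RNA-binding ubiquitin ligase gene, and Son, a nuclear speckle splicing cofactor gene, each had 3 adjacent bins and 1 apart. Hspg2, which encodes the basement membrane protein perlecan, had 4 bins, of which 1 was called in a KO+WT list and the others in none. Slc7a5, the light chain of a large neutral amino acid transporter, had bins 85.5 and 185.5 nt from its start and another near its end. Sae1, part of the SUMO-activating enzyme, had 3 bins spread over its span.

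Of the 14 gene lists looked at, that of the stress response had the highest share of genes with a KO-listed bin, a difference that was not tested. Over all genes with a bin in any list, 3.77% had a KO-listed bin, and over the 1509 genes with a bin in all KO lists it was 34.4%. In the list of stress response and immediate early genes the count was 7 of 26 (26.9%), and these were all 7 of its genes that had a bin in all KO lists. They were Ier3, Gadd45a, Jund, Ddit4, Chac1, Hspa5 and Hsp90ab1, of which the last 4 were named after their values were seen. The growth arrest gene Gadd45a had values of 0.98, 0.88 and 1.40, and the AP-1 subunit gene Jund had 0.68, 0.99 and 1.16. Ddit4, an mTORC1 inhibitor, had 1.15, 0.81 and 0.90, Chac1, a glutathione-degrading enzyme, had 0.88, 0.89 and 0.93, and Hspa5, the main chaperone of the endoplasmic reticulum, had 0.80, 0.93 and 0.91.
In this list 6 bins were called in no rescue list. The exception was the cytosolic chaperone gene Hsp90ab1, with 0.40, 0.40 and 0.35, at the very bottom of the KO rankings and directly beside a WT bin. The bins of Ier3, Gadd45a, Ddit4, Chac1 and Hspa5 lay 21.5, 60.5, 350.5, 137.5 and 130.5 nt from the gene start, and all 7 genes also had WT bins elsewhere. Whether the level of these RNAs differed between the lines was not tested. In this and the next paragraphs Nr0b1, Zfp281, Rbm15 and Ddx21 were also named after their values were seen.

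Chromatin modifiers had 10 of 47 genes with a KO-listed bin (21.3%), of 24 with a bin in all KO lists. The histone demethylase gene Kdm4b had 1.15, 1.07 and 1.52, with 1 call in each rescue line, the remodeller Chd1 had 1.15, 1.08 and 1.21 and no rescue call, and the Polycomb subunit Suz12 had 0.90, 1.20 and 1.37, with 1 call each in KO+WT and KO+13RK. In the pluripotency list 4 of 25 genes (16%) had one, namely Nanog, Dppa3, Zfp281 and Nr0b1, of 7 with a bin in all KO lists. The first Nanog bin had 2.10, 1.36 and 1.97, and was called in 2 KO+13RK lists and in no KO+WT or KO+5RK list. The second had 1.14, 1.09 and 0.89, and was called in 2 KO+5RK lists and 1 KO+13RK list. Neither was called in KO+WT.
Dppa3, a maternal and germ cell factor that protects DNA methylation, had 1.59, 1.20 and 1.27 at 136.5 nt from its start. It was called in 2 lists of each rescue line, reaching 2.53 and 1.81 in KO+WT, and had no WT bin. Dppa3 was also the single gene in the germ cell list, of 12 genes with a bin.

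The m6A machinery had a KO-listed bin in 4 of 26 genes (15.4%), of 8 with a bin in all KO lists. Igf2bp1, an m6A-binding protein gene, had 3.49, 1.58 and 1.55, the first far above the others, with 1 call each in KO+WT and KO+5RK. Virma, the largest subunit of the writer complex, had 1.39, 1.53 and 1.55 and was called in 2 lists each of KO+WT and KO+5RK and in 1 of KO+13RK. The cytoplasmic reader gene Ythdf3 had 1.05, 1.46 and 1.62 in a bin 114.5 nt from its start, 21000 nt from its nearest WT bin, and no rescue call. The fourth, in the writer adaptor gene Rbm15, was called in no rescue list either.

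The other lists had lower shares of their genes with a bin, some above the 3.77% over all genes. Only genes with a bin in all KO lists can have a KO-listed bin, and over those 1509 genes the share was 34.4%. Of the lists below, only that of the extracellular matrix, with 2 of 4, lay above this second share. Among translation factors 3 of 30 genes (10%) had one, of 18 with a bin in all KO lists: Eif2a with 2 adjacent bins, the stronger at 1.44, 1.40 and 1.58, the scaffold Eif4g1 with 3 bins of lower mean value, and the helicase Eif4a1, called in 7 rescue lists and directly beside a WT bin. Among splicing factors and helicases there were 3 of 37 (8.11%), of 21 with a bin in all KO lists, namely Son, the export helicase Ddx39b, called in 6 rescue lists, and Ddx21. In DNA repair there were 2 of 50 genes (4%), of 8 with a bin in all KO lists. The Rad50 bin, in a subunit of the double-strand break sensor, had 1.52, 1.62 and 1.19 and 1 KO+5RK call. The Brca1 bin had 1.05, 0.93 and 1.24, lay 200 nt from a WT bin, and had no rescue call. Extracellular matrix genes had 2 of 17 (11.8%), of 4 with a bin in all KO lists, Hspg2 and Fbn1, whose bin had 1.70, 2.17 and 1.57 with no WT bin and no rescue call. The list of selected imprinted and long noncoding genes had 1 of 23, of 5 with a bin in all KO lists, namely Peg10, with 2.44, 1.19 and 1.35. That list is not complete: it leaves out Zdbf2, described above, and 9 KO-listed bins lay in genes that RefSeq types as long noncoding RNA. Histones had 1 of 31, H1f0, of 12 with a bin in all KO lists. The cell cycle list had 1 of 33, the mitotic kinase Cdk1, of 6. Ribosomal proteins had 0 of 49, of which 7 had a bin in all KO lists, and early lineage genes had 0 of 11, of which 1 had.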

How the data were processed

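Per the labels' protocols, fragments of messenger RNA were pulled down with an anti-m6A polyclonal antibody before stranded library preparation. GRCm38, kallisto 0.43.0 and STAR 2.5.3a stand in the submitters' processing notes with no role. The names of the deposited lists carry the term clam_peak, and no source used here describes the peak calling further. The authors deposited 15 lists of 100 nt bins without a header, each named for one replicate and taken as that of its immunoprecipitated library. No list gives read depth. Each row holds the authors' enrichment score (0.31 to 5.82), whose scale is not given, and the authors' p-value and q-value, every q being under 0.05. Starts were read as BED and are printed from 1. Presence of a bin in a list was the only measure compared between lists, and the score was turned into a percentile within its list.

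Gene symbols came from a table that left 35 of 13765 genes unnamed. Positions used RefSeq spans of GRCm38.p6, matched by symbol and chromosome, with the bin's strand, and 561 of 615 bins were placed. Start windows (250 bases before to 50 after) matched 450 of the 615 bins. Neither the input libraries nor a genome sequence was used here. Lists were the unit of every test (exact permutation, python 3.11.15, numpy 2.4.6, pandas 2.3.3), and pairs of lines were adjusted by the Benjamini-Hochberg method. The rule and tests were checked on simulated lists. The bins, gene lists and tests were chosen with earlier results of these data known. Genes were named as the 8 highest by mean KO percentile in no rescue list, in 8 or more rescue lists and within 500 nt of the gene start, the 8 genes with most bins, and up to 3 bins in each of 14 gene lists. Alternatives were a q under 0.005, a score at or above the median (1.36), lists of equal length (6328), each replicate left out, no WT bin within 100 nt, merged bins, the replicate block, and other distances.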

Additional observations from a re-analysis of the deposited data

How the results depend on the processing

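The number of KO-listed bins, 615, moved with how the lists were cut: 282 at a q under 0.005, 125 when the enrichment value had to reach the median, and 1107 at equal list length. Without 1 KO or WT replicate it was 694 to 1387. The bins in no rescue list numbered 134, 49 and 398 under the same 3 settings. Without 1 KO or WT replicate, which changes the set, they numbered 268 to 659, the 659 being of the 1387 bins. Without 1 rescue list, which keeps the 615 bins, they numbered 263 to 281. Shares called were, for KO+5RK, 11.2% at the stricter q, 21.0% at equal length and 13.5% without bins beside a WT bin, and for KO+13RK 16.7%, 28.6% and 19.12%, with 15.5% at the higher enrichment value. Without 1 replicate they were 14.3% to 23.5% in KO+WT, 12.6% to 19.3% in KO+5RK and 15.8% to 23.6% in KO+13RK. The exact p between lines for these shares was 0.00714 at equal length and 0.0286 to 0.468 without 1 replicate, below 0.05 without KO+WT replicate 2 only.

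For bins per 1000 listed, the exact p between lines was 0.0571 at the higher enrichment value and 0.00714 to 0.0393 without 1 replicate. With the replicate block it was 0.111, and 0.333 for the shares (smallest possible 0.0278). Deviations of same-numbered rescue lists correlated at -0.0256 to 0.017 over bins, and 8 of 18 were highest with their own number. These values do not settle whether the replicate numbers pair the lists.

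The lower share of KO-listed bins than of bins in all KO and all WT lists passed under every alternative run, at -63.6 to -55.9 percentage points without 1 replicate. Every run shares the limit that the choice of the sets favours this direction. Their lower percentile, -9.58 to -3.53 without 1 replicate, was -0.386 at the higher enrichment value (exact p = 0.895). The share near the gene start was 29.7% at the stricter q, 21.3% at equal length, 22.3% to 25.3% without 1 replicate, and 17.3% and 29.9% within 200 and 1000 nt. The share near the gene end was 5.35% within 1000 nt and 12.9% to 15.6% without 1 replicate. Read depth is unknown and limits every absence.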

Other observations

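Overlapping calls on opposite strands recurred among the KO-listed bins. Of the 615, 25 overlapped another KO-listed bin on the other strand, and 62 (10.1%) overlapped a bin of any KO list on the other strand, against 8.51% of the bins in all KO and all WT lists. The pairs included Sephs2 with Gm44729, Mrpl17 with Gm15645, Lss with 4930483K19Rik and Plxna1 with Gm26811. Of the 575 bins whose own gene has a RefSeq entry, 58 (10.1%) lay within the span of a second RefSeq gene, 8 of them among the 25.

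Mitochondrially encoded transcripts held 4 of the bins, 3 in mt-Nd5 and 1 in mt-Cytb, both subunit genes of the respiratory chain. All 4 ranked low in the KO lists, at mean percentiles of 0.680 to 7.90 across mt-Nd5 and 2.61 in mt-Cytb, and each was called in 7 or 8 rescue lists, 5 or 6 of them mutant lists. The nearest WT bin began 100 to 300 nt away. One KO-listed bin, in Elof1, overlapped a miRNA hairpin, Mir7084, and was called in no rescue list. The genes in this and the preceding paragraph were named after their values were seen.

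Genes with no bin in any WT list held 65 of the KO-listed bins, of which 21 were called in no rescue list. Of the 142 bins within 500 nt of the gene start, 69 (48.6%) were called in no rescue list, against 166 of the 419 other placed bins (39.6%). The share called per list was, in KO+13RK, 20.0% ± 5.33 against 20.2% ± 0.729, in KO+5RK 15.0% ± 4.30 against 14.1% ± 0.716 and in KO+WT 19.01% ± 11.3 against 17.98% ± 4.52 (SD, n = 3 lists). Neither difference was tested, and the sign of the second changed between lists, near-start shares being lower in 4 of 9.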
